A study of Homo sapiens with 4 samples.

Results

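The comparison of DNMT3B-L siRNA with control siRNA in DU145 cells, a human prostate cancer cell line grown as an adherent epithelial culture, was examined in RNA-seq of total RNA. It rests on 2 of the 4 libraries of the series, 1 for each siRNA, and on the 11075 of 23585 listed genes that stood in all 4 tables with an average of at least 5 CPM (the reads of a gene as a proportion of the library, on a scale that has the same total in every library). The tested cells carried the label DNMT3B-L knockdown and received an siRNA against DNMT3B-L. The control cells carried the genotype label WT and a negative control siRNA. The other 2 libraries came from PTBP1 knockdown cells that had received PTBP1 siRNA 1 or PTBP1 siRNA 2, which are different siRNAs against PTBP1, an RNA-binding splicing regulator, and they were used to see which values were particular to the DNMT3B-L siRNA library. All cells were from this 1 line, with 75 nM siRNA delivered by Lipofectamine RNAiMAX for 48 h, and nothing stated that the libraries came from separate cultures. With 1 library a side there was no replicate check, so the values below describe libraries, and intervals cover counting error only.

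DNMT3B is a de novo DNA methyltransferase: it adds methyl groups to cytosines in CpG sites that carry none, and CpG-rich promoters and germline genes are among the places where its methylation is known to keep transcription low. DNMT1, with UHRF1, copies existing methylation after replication, and TET enzymes with TDG take part in its removal. An siRNA lowers its target when its guide strand pairs with the transcript along its whole length. Through the bases near the 5′ end of the guide, called the seed, an siRNA is also known to lower other transcripts with a short match in the 3′ UTR, in the manner of a miRNA.

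The 4 libraries held 22332245 to 24088975 reads, recovered from the steps of the deposited CPM, and the tables listed 21973 to 22069 genes. PTBP1 stood at 982 CPM with DNMT3B-L siRNA, 268 and 135 CPM with PTBP1 siRNA 1 and 2, and 928 CPM with control siRNA, so the PTBP1 libraries carried their labelled knockdown and the DNMT3B-L library did not share it. The keratins KRT8 and KRT18 marked all libraries as epithelial, and the 5 epithelial markers (KRT8, KRT18, KRT19, EPCAM and CDH1) summed to 1734 CPM with DNMT3B-L siRNA, 1713 and 942 CPM with the PTBP1 siRNAs, and 2007 CPM with control siRNA. All 4 endothelial markers were below 1 CPM in every library. Of the 5 immune markers, only CD14 was in all 4 tables, at 0.777 to 0.996 CPM. The fibroblast markers summed to 18.8 CPM with DNMT3B-L siRNA, 27.5 and 19.6 CPM with PTBP1 siRNA 1 and 2, and 16.6 CPM with control siRNA, nearly all of it COL1A1, with COL3A1 and PDGFRA below 1 CPM. A lower level in a bulk library can mean fewer cells with the transcript or less of it per cell, and these cannot be told apart here.

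The siRNA's labelled target was itself a low gene. DNMT3B had 5.46 CPM with DNMT3B-L siRNA, 8.43 CPM with PTBP1 siRNA 1, 13.1 CPM with PTBP1 siRNA 2 and 9.77 CPM with control siRNA, which are 122, 203, 303 and 220 reads. The DNMT3B-L siRNA library was the lowest of the 4, and the PTBP1 siRNA libraries lay on both sides of control. DNMT3B was at 55.9% of control (ratio 0.559, exact 95% interval 0.444 to 0.701). On the log2(CPM + 1) scale used for all differences below, which understates those of low genes, this was -0.74, and it did not pass in a limma fit over the 4 libraries (standard error 0.44, adjusted p = 0.999). The tables give 1 value per gene, so the DNMT3B-L form could not be told from other DNMT3B transcripts.

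The rest of the methylation machinery stood mostly near control. Of the 20 measured members of a list of 22 genes, 1 was at least 1.5-fold higher and 2 were at least 1.5-fold lower than control, beside 4.36% and 6.21% of all 11075 genes, and the median difference was 0.05, as over all genes. DNMT1, the maintenance methyltransferase, had 519 CPM with DNMT3B-L siRNA, 458 and 391.99 CPM with PTBP1 siRNA 1 and 2, and 500.1 CPM with control siRNA. DNMT3A, the other de novo enzyme, had 47.3, 56.1, 47.5 and 50.4 CPM in the same order of libraries. Neither was set apart in the DNMT3B-L siRNA library. UHRF1, which brings DNMT1 to hemimethylated DNA, had 127 CPM with DNMT3B-L siRNA, 348 and 137 CPM with PTBP1 siRNA 1 and 2, and 213 CPM with control siRNA. It was at 59.7% of control (0.569 to 0.625 as a ratio), but the PTBP1 siRNA 2 library was nearly as low and the PTBP1 siRNA 1 library was the highest. TDG, a glycosylase of active demethylation, had 55.8 CPM with DNMT3B-L siRNA, 60.4 and 59.3 CPM with the PTBP1 siRNAs and 29.7 CPM with control siRNA, so that the control library alone was low. TET3, which oxidises methylcytosine, had 48.8 CPM with DNMT3B-L siRNA, 78.7 and 75.5 CPM with PTBP1 siRNA 1 and 2, and 44.4 CPM with control siRNA.

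**Figure D1:**
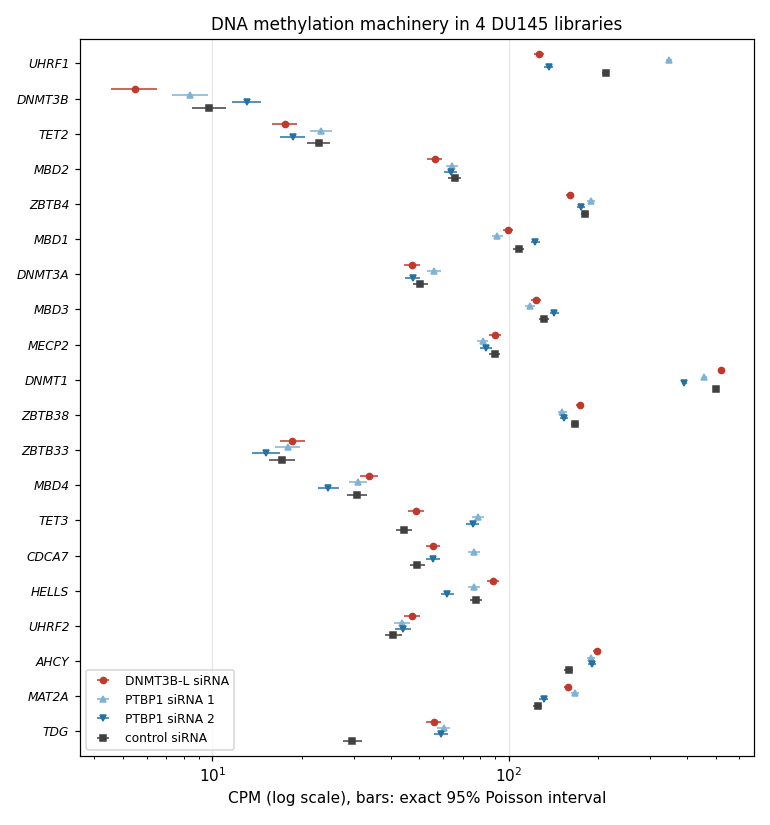
CPM on a log axis of the 20 measured genes of the DNA methylation machinery in the DNMT3B-L siRNA, PTBP1 siRNA 1, PTBP1 siRNA 2 and control siRNA libraries, 1 point per library with its exact 95% Poisson interval, ordered by the log2 ratio of DNMT3B-L siRNA to control siRNA with the lowest at the top. DNMT3B (5.46 CPM with DNMT3B-L siRNA against 9.77 CPM with control siRNA) and UHRF1 are the lowest against control, and TDG, where control alone is low, is the highest.

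Over all genes, more stood below control than above it at the 2-fold line. With DNMT3B-L siRNA, 35 genes (0.316%) were at least 2-fold higher and 138 genes (1.25%) at least 2-fold lower than with control siRNA. With a pseudocount of 5 in place of 1 these were 11 and 62. Against the mean of the PTBP1 siRNA libraries in place of control, 99 were higher and 120 lower. Against PTBP1 siRNA 1 alone 247 were higher and 234 lower, and against PTBP1 siRNA 2 alone 223 and 136. The excess of lower genes thus depended on the library used as baseline. At 1.5-fold the numbers were 483 higher and 688 lower. The median difference over all genes was 0.05, and 90% lay between -0.64 and 0.56. PTBP1 siRNA 1 gave 70 higher (0.632%) and 176 lower genes (1.59%) at 2-fold against the same control library, and PTBP1 siRNA 2 gave 49 (0.442%) and 176 (1.59%). In both directions together, DNMT3B-L siRNA differed from control siRNA by 2-fold in 173 genes (1.56%), while the 2 PTBP1 siRNA libraries, which share a target, differed from each other in 435 genes (3.93%). The DNMT3B-L siRNA library differed from PTBP1 siRNA 1 in 481 genes (4.34%) and from PTBP1 siRNA 2 in 359 genes (3.24%). The share past 2-fold with DNMT3B-L siRNA was 3.45% among genes with an average of 5 to 10 CPM, 1.69% from 10 to 50 CPM, 0.777% from 50 to 200 CPM and 0.968% above. The members nearest the line were ADRB1 (9.27 CPM with DNMT3B-L siRNA against 4.09 CPM with control siRNA) just inside and IRS1 (18.0 against 8.53 CPM) just outside on the higher side, and ASS1 (26.8 against 54.7 CPM) just inside and HERC1 (17.5 against 35.9 CPM) just outside on the lower side.

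No gene passed a test. In the limma fit over the 4 libraries 0 of 11075 genes (0%) had an adjusted p under 0.05, and 306 had an unadjusted p under 0.05. In edgeR's quasi-likelihood test on the recovered reads the counts were 0 (0%) and 333. The smallest adjusted p was 0.631 in limma and 0.453 in edgeR, both for VTN. Both fits took their spread from the pair of PTBP1 siRNA libraries, which left 1 residual degree of freedom, and assumed that the lone libraries vary in the same way.

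To find values that did not rest on the control library alone, the DNMT3B-L siRNA library was set against each of the other 3. It was at least 2-fold above all 3 in 6 genes (0.0542%) and at least 2-fold below all 3 in 34 genes (0.307%). The same count gave 16 above (0.144%) and 63 below (0.569%) for PTBP1 siRNA 1, 9 (0.0813%) and 43 (0.388%) for PTBP1 siRNA 2, and 2 (0.0181%) and 3 (0.0271%) for control siRNA. Thus each of the 3 target siRNAs set more genes apart than control siRNA, mostly downward, and the DNMT3B-L siRNA library set apart the fewest of the 3. Among genes with at least 5 CPM both with DNMT3B-L siRNA and in the average of the other 3, a filter chosen after the values were seen, its counts were 3 above and 24 below. Without the PTBP1 siRNA 1 library its counts were 10 above and 51 below, and without PTBP1 siRNA 2 they were 13 and 69. Of the 35 genes 2-fold higher than control, 29 were also above both PTBP1 siRNA libraries, and of the 138 lower genes 122 were below both. Over all genes, the DNMT3B-L siRNA library was the highest of the 4 in 31.8% and the lowest in 23.5%. Genes picked for an extreme value in this library tend to lie beyond the other libraries too, so these 2 counts follow in part from the selection. The median difference from control of the 138 lower genes was -1.19 with DNMT3B-L siRNA, -0.31 with PTBP1 siRNA 1 and -0.52 with PTBP1 siRNA 2, and that of the 35 higher genes was 1.13, 0.60 and 0.59. All of these differences share the control library.

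**Figure D2:**
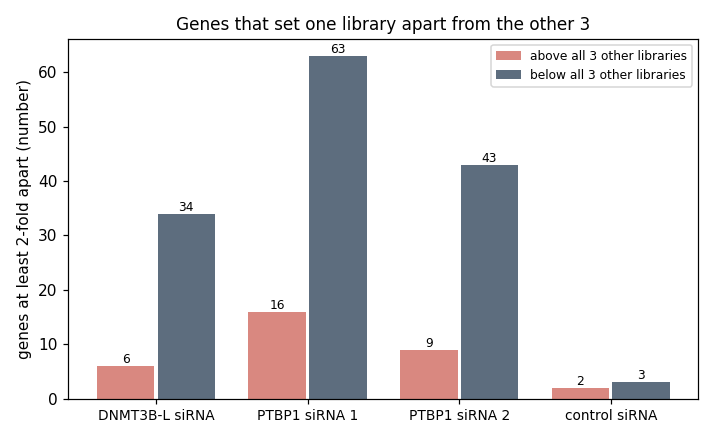
Number of genes (y axis, out of 11075) at least 2-fold above or at least 2-fold below all 3 other libraries on the log2(CPM + 1) scale, for each of the 4 libraries. DNMT3B-L siRNA has 6 above and 34 below, fewer than either PTBP1 siRNA and more than control siRNA with 2 and 3.

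The genes furthest above the other 3 libraries are described in turn, and the ones known from epithelial cells come first as a grouping by role, with no test of it. The fixed list of epithelial junction and keratin genes went both ways. Of its 26 measured members 6 were at least 1.5-fold higher and 7 lower than control, beside 4.36% and 6.21% of all genes. Of the 14 genes furthest above, EPCAM, BSPRY, KIAA0040 and KCNJ11 averaged under 5 CPM in the other 3 libraries and passed the filter only through the DNMT3B-L siRNA library. EPCAM, an epithelial adhesion molecule, had 11.6 CPM with DNMT3B-L siRNA, 3.69 and 2.24 CPM with PTBP1 siRNA 1 and 2, and 3.73 CPM with control siRNA, a ratio to control of 3.11 (exact 95% interval 2.42 to 4.02). ESRP2, an epithelial splicing regulator, had 40.1 CPM with DNMT3B-L siRNA, 20.7 and 15.8 CPM with the PTBP1 siRNAs, and 21.99 CPM with control siRNA. In both genes the PTBP1 libraries were at or below control, and the DNMT3B-L siRNA library alone was high. SPINT1, an inhibitor of epithelial surface proteases, had 31.7 CPM with DNMT3B-L siRNA, 13.0 and 8.76 CPM with PTBP1 siRNA 1 and 2, and 15.7 CPM with control siRNA. BSPRY had 19.2 CPM with DNMT3B-L siRNA, 3.20 and 3.76 CPM with the PTBP1 siRNAs, and 7.51 CPM with control siRNA, so it was high with DNMT3B-L siRNA and low with both PTBP1 siRNAs.

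A further 7 epithelial genes were picked after their own values had been seen too. How many of them were highest with DNMT3B-L siRNA therefore depends on the picking and says nothing about epithelial genes in general. Of the 7, ESRP1, MARVELD3, EPHA1 and RAB25, 4 in all, averaged under 5 CPM. ESRP1, the paralog of ESRP2, had 3.45 CPM with DNMT3B-L siRNA, 0.540 and 0.561 CPM with PTBP1 siRNA 1 and 2, and 0.933 CPM with control siRNA. MARVELD3, a tight junction protein, had 4.16, 0.374, 0.604 and 0.844 CPM, and EPHA1, an ephrin receptor, 2.37, 0.332, 0.475 and 0.355 CPM, in the same order. All 3 were highest with DNMT3B-L siRNA, from 77, 93 and 53 reads. RAB25 had 2 reads with DNMT3B-L siRNA and 1 read with control siRNA. Of the other 3, the protease ST14 had 34.2 CPM with DNMT3B-L siRNA, 12.5 and 10.1 CPM with PTBP1 siRNA 1 and 2, and 22.4 CPM with control siRNA, and the tight junction protein OCLN had 41.0, 30.1, 9.11 and 27.0 CPM. Both were highest with DNMT3B-L siRNA, by under 2-fold against control, while the cadherin CDH3 had 38.9 CPM with DNMT3B-L siRNA and 42.2 CPM with control siRNA.

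Some of the other genes furthest above had roles in metabolism and DNA synthesis. RRM2, the regulated subunit of ribonucleotide reductase, which makes deoxyribonucleotides, had 281 CPM with DNMT3B-L siRNA, 127 and 137 CPM with PTBP1 siRNA 1 and 2, and 126 CPM with control siRNA, a ratio of 2.23 (2.14 to 2.34). The other 3 libraries lay close together. GCH1, the first enzyme of tetrahydrobiopterin synthesis, had 35.6 CPM with DNMT3B-L siRNA, 14.4 and 18.0 CPM with the PTBP1 siRNAs, and 16.5 CPM with control siRNA. SLC25A4, a mitochondrial ADP/ATP carrier, had 29.4, 12.8, 11.1 and 13.9 CPM, and AOC2, an amine oxidase, 24.8, 8.80, 7.47 and 9.28 CPM, in the same order. The remaining 6 of the 14 genes furthest above, among them SLC27A2, CA2, ZNF669, KCNJ11 and KIAA0040, stood at 1.82-fold to 2.23-fold of control. KIAA0040 had the widest spread among the others, and had 11.7 CPM with DNMT3B-L siRNA, 1.20 and 2.89 CPM with PTBP1 siRNA 1 and 2, and 5.24 CPM with control siRNA.

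**Figure D3:**
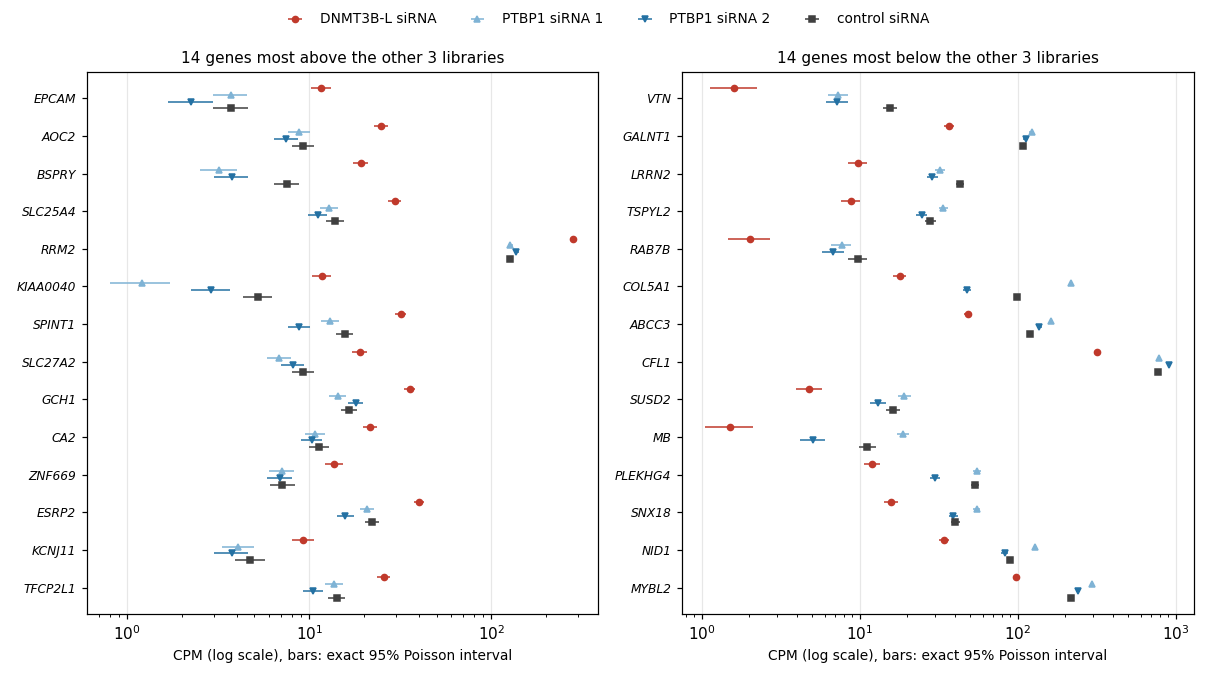
CPM on a log axis of the 14 genes furthest above (left) and the 14 furthest below (right) the other 3 libraries in the DNMT3B-L siRNA library, 1 point per library with its exact 95% Poisson interval. EPCAM (11.6 CPM with DNMT3B-L siRNA against 3.73 CPM with control siRNA) leads the left panel and VTN (1.61 CPM against 15.5 CPM) the right one, and in COL5A1 and MB the other 3 libraries are themselves spread widely.

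The genes furthest below are given by role, beginning with the extracellular matrix and the cell surface. Of these 14 genes, VTN, RAB7B, SUSD2 and MB were under 5 CPM with DNMT3B-L siRNA and passed the filter only through the other libraries. VTN, the adhesive glycoprotein vitronectin, had 1.61 CPM with DNMT3B-L siRNA, 7.31 and 7.21 CPM with PTBP1 siRNA 1 and 2, and 15.5 CPM with control siRNA. It was at 10.4% of control (ratio 0.104, 0.0714 to 0.146, from 36 and 350 reads), and both PTBP1 siRNA libraries stood between. COL5A1, a fibrillar collagen chain, had 17.9 CPM with DNMT3B-L siRNA, 216 and 47.6 CPM with PTBP1 siRNA 1 and 2, and 99.2 CPM with control siRNA. It was the lowest with DNMT3B-L siRNA, but the PTBP1 siRNA libraries differed from each other in it more widely than the DNMT3B-L siRNA library did from the lower of them. NID1, the basement membrane protein nidogen, had 34.3 CPM with DNMT3B-L siRNA, 129 and 82.5 CPM with the PTBP1 siRNAs, and 89.5 CPM with control siRNA. LRRN2, a leucine-rich repeat membrane protein, had 9.72, 32.2, 28.8 and 43.1 CPM in the same order. SUSD2, another membrane protein, had 4.79, 19.2, 13.0 and 16.3 CPM.

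Other genes furthest below act in glycosylation, transport and the cytoskeleton. GALNT1, which starts mucin-type O-glycosylation, had 36.8 CPM with DNMT3B-L siRNA, 122 and 112 CPM with PTBP1 siRNA 1 and 2, and 108 CPM with control siRNA, a ratio of 0.339 (0.313 to 0.367). CFL1, the actin-severing protein cofilin, was the most abundant, with 316 CPM with DNMT3B-L siRNA, 785 and 912 CPM with the PTBP1 siRNAs, and 776 CPM with control siRNA, a ratio of 0.406 (0.395 to 0.418). In both genes the other 3 libraries lay close together. CFL1 has pseudogene copies in the genome, to which some of its reads could have been assigned. ABCC3, an organic anion exporter, had 48.4 CPM with DNMT3B-L siRNA, 162 and 137 CPM with PTBP1 siRNA 1 and 2, and 120.3 CPM with control siRNA. In the same order of libraries, the late-endosomal GTPase RAB7B had 2.02, 7.68, 6.82 and 9.73 CPM, and the sorting nexin SNX18 15.9, 55.0, 39.2 and 40.4 CPM. TSPYL2, a nucleosome assembly protein relative, had 8.78 CPM with DNMT3B-L siRNA, 33.8 and 24.7 CPM with the PTBP1 siRNAs, and 28.1 CPM with control siRNA. MB, myoglobin, had 1.52 CPM with DNMT3B-L siRNA, 18.8 and 5.05 CPM with PTBP1 siRNA 1 and 2, and 11.2 CPM with control siRNA, and PLEKHG4, a guanine nucleotide exchange factor, had 12, 55.4, 30.0 and 53.9 CPM. In both, the PTBP1 siRNA 1 library was the highest and the DNMT3B-L siRNA library the lowest.

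The largest differences from control outside these genes were shared in direction by the PTBP1 siRNA libraries. These genes were picked by that difference after the genes furthest from all other libraries had been set aside. Such genes tend to have a PTBP1 siRNA library lying towards the DNMT3B-L siRNA library. The shared direction, and the order of the libraries given below, therefore follow in part from the selection. ADM, the vasodilator peptide adrenomedullin, had 12.4 CPM with DNMT3B-L siRNA, 3.99 and 7.04 CPM with PTBP1 siRNA 1 and 2, and 2.09 CPM with control siRNA, a ratio of 5.94 (4.35 to 8.28, from 277 and 47 reads). NR4A2, an orphan nuclear receptor induced early by many stimuli, had 44.1 CPM with DNMT3B-L siRNA, 16.8 and 38.7 CPM with the PTBP1 siRNAs, and 10.5 CPM with control siRNA. The kinase SIK1 had 12.1, 7.14, 4.92 and 3.64 CPM, the ERK phosphatase DUSP5 80.3, 30.8, 54.1 and 28.3 CPM, and the EGFR ligand AREG 9.45, 5.27, 6.48 and 2.93 CPM, in the same order. In all 5 the control library was the lowest of the 4 and the DNMT3B-L siRNA library the highest. ADM and AREG averaged under 5 CPM in the other libraries and passed the filter only through the DNMT3B-L siRNA library. On the other side, GAL3ST1, a sulfotransferase of glycolipids, had 2.91 CPM with DNMT3B-L siRNA, 6.43 and 4.14 CPM with PTBP1 siRNA 1 and 2, and 16.7 CPM with control siRNA. The water and glycerol channel AQP3, the betaine transporter SLC6A12, HHIPL2 and the complement inhibitor SERPING1 were at 26.0%, 25.6%, 26.4% and 30.0% of control, and in all of them control was the highest and DNMT3B-L siRNA the lowest of the 4 libraries. GAL3ST1, SLC6A12 and HHIPL2 were under 5 CPM with DNMT3B-L siRNA and passed the filter only through the other libraries.

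Genes of cell division had the highest list medians. Of 41 DNA replication genes, 5 were at least 1.5-fold higher than control and 0 lower, beside 4.36% higher and 6.21% lower over all genes, with a median difference of 0.33 beside 0.05 over all genes. Of 32 mitosis genes 4 were higher and 0 lower, with a median of 0.34. Against the mean of the PTBP1 siRNA libraries the medians were 0.17 and 0.23. The DNMT3B-L siRNA library was the highest of the 4 in 24 of the 41 and in 24 of the 32, beside 31.8% of all genes. The same medians were 0.22 and -0.04 for replication and 0.04 and 0.14 for mitosis with PTBP1 siRNA 1 and 2. Besides RRM2, CDT1, which licenses replication origins, had 104 CPM with DNMT3B-L siRNA, 105 and 77.0 CPM with PTBP1 siRNA 1 and 2, and 65.9 CPM with control siRNA, so that PTBP1 siRNA 1 matched it. GINS1, of the replicative helicase, had 70.3 CPM with DNMT3B-L siRNA, 48.9 and 25.3 CPM with the PTBP1 siRNAs, and 41.4 CPM with control siRNA. The mitotic kinase AURKA had 290 CPM with DNMT3B-L siRNA, 157 and 201 CPM with PTBP1 siRNA 1 and 2, and 169 CPM with control siRNA. The mitotic kinesin KIF2C had 113, 76.6, 87.1 and 59.9 CPM and the mitotic entry phosphatase CDC25C 40.9, 23.3, 26.5 and 23.0 CPM in the same order, highest with DNMT3B-L siRNA. MYBL2, a cell cycle transcription factor in neither list and among the genes furthest below, went the other way. It had 97.3 CPM with DNMT3B-L siRNA and 219 CPM with control siRNA. Of 31 genes of double-strand break repair 1 was higher, the nuclease EXO1, at 70.5 CPM with DNMT3B-L siRNA, 58.8 and 21.1 CPM with the PTBP1 siRNAs, and 43.7 CPM with control siRNA, and the median was 0.19. The 9 measured replication-dependent histone genes had 0 members past 1.5-fold and a median of -0.25, and the way RNA was selected for the libraries was not stated.

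Most matrix and mesenchymal genes were below control, and epithelial genes went both ways. Of 31 measured mesenchymal and matrix genes, 8 were at least 1.5-fold lower and 2 higher than control, beside 6.21% and 4.36% of all genes, with a median of -0.25 against control and -0.37 against the mean of the PTBP1 siRNA libraries, and the DNMT3B-L siRNA library was the lowest of the 4 in 17, beside 23.5% of all genes. The medians with PTBP1 siRNA 1 and 2 were 0.28 and -0.05. Besides COL5A1, TGFB2, a TGF-beta ligand, had 13.7 CPM with DNMT3B-L siRNA, 54.2 and 30.3 CPM with the PTBP1 siRNAs, and 27.6 CPM with control siRNA, and the collagen chain COL6A1 had 97.3, 252, 156 and 184 CPM. ZEB1, a repressor of epithelial genes, had 13.8 CPM with DNMT3B-L siRNA, 29.6 and 21.1 CPM with PTBP1 siRNA 1 and 2, and 24.5 CPM with control siRNA, and vimentin (VIM) 246, 423, 302 and 350 CPM. These 4 genes were lowest with DNMT3B-L siRNA and highest with PTBP1 siRNA 1. Of 26 epithelial junction and keratin genes, 6 were higher and 7 lower, with a median of -0.13 against control and 0.18 against the PTBP1 siRNA mean. EPCAM and ESRP2 were among the higher ones. Among the lower ones, the claudin CLDN4 had 4.88 CPM with DNMT3B-L siRNA, 8.55 and 6.09 CPM with the PTBP1 siRNAs, and 11.2 CPM with control siRNA, the integrin ITGB4 63.4, 135, 46.8 and 126.9 CPM, and E-cadherin (CDH1) 12.5, 20.0, 6.43 and 19.9 CPM. The list as a whole therefore did not move to one side of control. ZEB1, VIM and CDH1 were named after their values were seen.

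Of 22 measured interferon-induced genes, 0 were at least 1.5-fold higher and 4 lower, beside 4.36% and 6.21% of all genes, with a median of -0.30 with DNMT3B-L siRNA, -0.42 with PTBP1 siRNA 1 and -0.04 with PTBP1 siRNA 2. Against the mean of the PTBP1 siRNA libraries the DNMT3B-L siRNA median was -0.084. IFIT2, an interferon-induced RNA-binding protein, had 33.8 CPM with DNMT3B-L siRNA, 76.8 and 87.9 CPM with PTBP1 siRNA 1 and 2, and 106 CPM with control siRNA, a ratio of 0.317 (0.292 to 0.345). It was set apart below all 3 others, which its relative IFIT3 (61.4, 87.7, 71.8 and 110 CPM) and OASL (62.3, 69.7, 100.4 and 125 CPM) were not by 2-fold. Members not past 1.5-fold included ISG15, at 156 CPM with DNMT3B-L siRNA and 162 CPM with control siRNA, and MX1, at 59.2 and 58.6 CPM, both named after their values were seen.

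Genes whose silencing is classically tied to DNA methylation gave little signal above the 5 CPM line. Of 42 germline and cancer-testis genes only 2 were measured, the cohesin subunit STAG3 (4.57 CPM with DNMT3B-L siRNA, 4.82 and 5.61 CPM with the PTBP1 siRNAs, 7.68 CPM with control siRNA) and TEX15 (11.1, 19.7, 12.6 and 13.1 CPM), and both were lowest with DNMT3B-L siRNA. Their median of -0.43 became 0.031 with no filter on low values, where 6 of the 42 stood in all 4 tables. Of 25 imprinted genes 10 were measured, with a median of -0.10. At the 1.5-fold line 0 were higher and 1 lower, beside 4.36% and 6.21% of all genes. The lower one, MEST, a paternally expressed gene, had 18.7 CPM with DNMT3B-L siRNA, 40.8 and 34.0 CPM with PTBP1 siRNA 1 and 2, and 33.3 CPM with control siRNA. Methylation itself was not analysed here.

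Lists of signalling, stress and metabolism showed members on both sides or values shared with the PTBP1 siRNAs. Of 25 immediate early and MAPK feedback genes 8 were higher and 1 lower, with a median of 0.24 with DNMT3B-L siRNA beside 0.50 and 0.46 with PTBP1 siRNA 1 and 2. FOSL1, an AP-1 subunit, had 144 CPM with DNMT3B-L siRNA, 131 and 136 CPM with the PTBP1 siRNAs, and 70.4 CPM with control siRNA, where again control alone was low. Of 28 sterol and fatty acid synthesis genes 0 were higher and 6 lower, with a median of -0.13 beside -0.41 and -0.32. Against the PTBP1 siRNA mean these medians turned, to -0.075 for the immediate early list and 0.19 for the sterol list. The desaturase FADS1 had 176 CPM with DNMT3B-L siRNA, 281 and 256 CPM with PTBP1 siRNA 1 and 2, and 345 CPM with control siRNA, and SCD 1347, 1651, 1164 and 2196 CPM. Over all genes 4.36% were higher and 6.21% lower, and beside this the counts of higher and lower genes were 3 and 2 of 31 for hypoxia and glycolysis, 3 and 3 of 17 for NF-kB cytokines and feedback, 2 and 0 of 22 for p53 targets, 1 and 2 of 31 for unfolded protein and amino acid stress, and 0 and 1 of 18 for splicing regulators related to PTBP1 and RALY. The glucose transporter SLC2A3 had 18.7 CPM with DNMT3B-L siRNA, 25.8 and 18.9 CPM with the PTBP1 siRNAs, and 7.55 CPM with control siRNA. The glycolytic regulator PFKFB4, in contrast, was highest with DNMT3B-L siRNA, at 41.2 CPM, beside 15.6, 24.5 and 23.0 CPM.

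The small RNA silencing machinery, through which an siRNA acts, had 2 genes of 14 at least 1.5-fold higher and 2 lower. Over all genes 4.36% were higher and 6.21% lower. The list median was 0.28 with DNMT3B-L siRNA, and -0.01 and 0.16 with PTBP1 siRNA 1 and 2. The DNMT3B-L siRNA library was the highest of the 4 in 9 of the 14 and the lowest in 3, beside 31.8% and 23.5% of all genes. TNRC6B, a scaffold of the silencing complex, had 33.9 CPM with DNMT3B-L siRNA, 65.1 and 100.6 CPM with PTBP1 siRNA 1 and 2, and 67.9 CPM with control siRNA, the lowest of the 4. DICER1, which cuts miRNA precursors, was the highest of the 4 with DNMT3B-L siRNA, at 83.0 CPM, beside 44.8 and 69.9 CPM with the PTBP1 siRNAs and 49.4 CPM with control siRNA. TNRC6C, a relative of TNRC6B, had 11.8 CPM with DNMT3B-L siRNA, 12.5 and 13.6 CPM with PTBP1 siRNA 1 and 2, and 21.6 CPM with control siRNA.

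**Figure D4:**
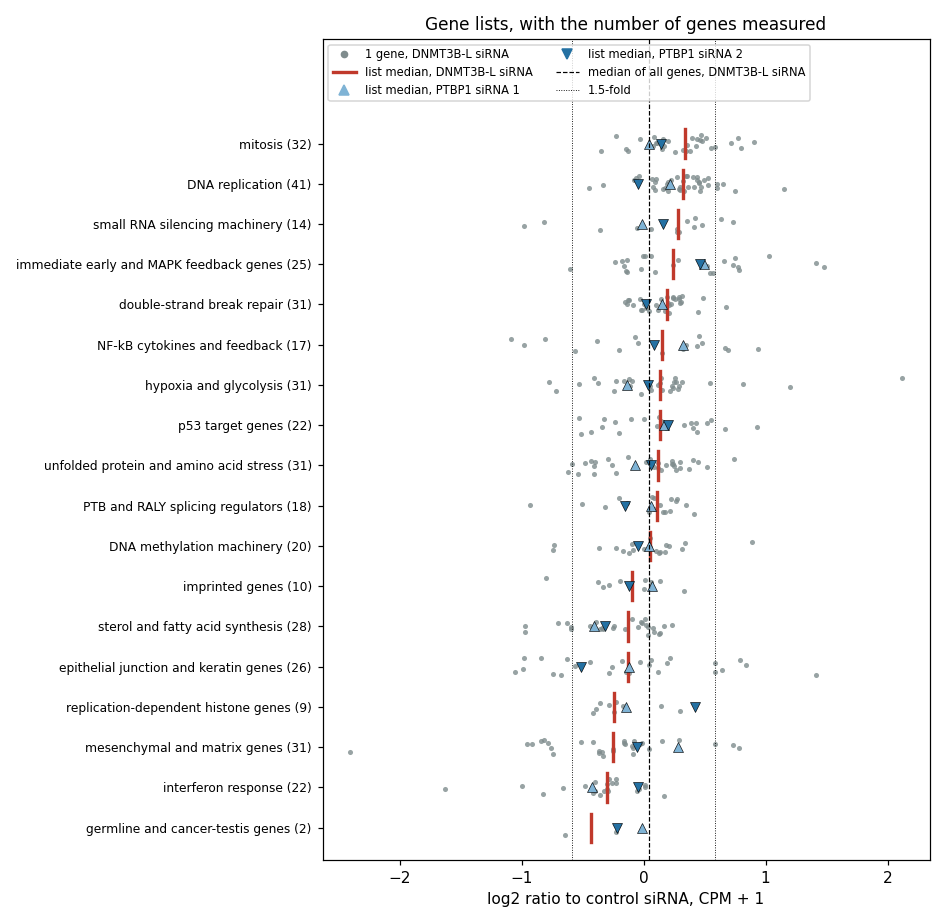
Log2 ratio to control siRNA of CPM + 1 (x axis) for the measured genes of 18 lists, 1 grey dot per gene in the DNMT3B-L siRNA library, with the list median in that library (red line) and in the PTBP1 siRNA 1 and 2 libraries (triangles), the median of all genes (dashed) and the 1.5-fold lines (dotted). Mitosis (0.34) and DNA replication (0.33) have the highest medians with DNMT3B-L siRNA, and most dots of all lists lie inside the 1.5-fold lines.

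The lower genes were then described by a short sequence in their transcripts. An earlier analysis of these same values had picked the word AACAACA, of 7 bases, as the one in 3′ UTRs that went most with low values in the DNMT3B-L siRNA library, so its relation to these values is a description and nothing here tests it. The word was searched on the transcript strand only, in the longest 3′ UTR of each gene in GENCODE release 29, and overlapping copies were counted separately. Of the 11075 genes, 10499 (94.8%) had a 3′ UTR of at least 50 bases, and 1442 of these (13.7%) held the word. The sequence of the siRNA was not used here, so whether the word pairs with its guide was not tested. Sites are shown for 5 of the genes furthest below the other libraries whose 3′ UTR held the word, with the first site where there were several, 5′ to 3′ on the transcript strand with the word in capitals and positions on GRCh38.
GALNT1, 3′ UTR, plus strand, chr18:35710241-35710270: agaatcatgaaAACAACAtttttacaacaa
CFL1, 3′ UTR, minus strand, chr11:65855023-65855052: gtattttttttAACAACAtccccattcccc
NID1, 3′ UTR, minus strand, chr1:235976759-235976788: tattcttatctAACAACAcaatccggaaag
MYBL2, 3′ UTR, plus strand, chr20:43716276-43716305: ctcctggtgctAACAACAaagttccacttc
IFIT2, 3′ UTR, plus strand, chr10:89308778-89308807: ctaaccactgtAACAACAgtttttgtgtta

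GALNT1 held 2 copies in a 3′ UTR of 2064 bases, and CFL1, NID1, MYBL2 and IFIT2 held 1 each. MYBL2, a cell cycle transcription factor, had 97.3 CPM with DNMT3B-L siRNA, 295 and 241 CPM with PTBP1 siRNA 1 and 2, and 219 CPM with control siRNA, and the values of the other 4 genes are given above. DNMT3B held the word in 6 of its 6 coding transcripts, with 2 to 3 copies each. The transcript with the longest 3′ UTR had 3 copies in the coding sequence and 0 in its 3′ UTR of 1453 bases. Of all 10499 genes with a 3′ UTR, 1464 likewise held the word in the coding sequence but not in the 3′ UTR. A further 7538 held no copy in the transcript. The DNMT3B coding sites that do not cross a splice junction are shown, since they lie in the labelled target.
DNMT3B, coding sequence, plus strand, chr20:32786506-32786535: gaactcgaaatAACAACAgtgtctccagcc
DNMT3B, coding sequence, plus strand, chr20:32795662-32795691: cagatgttgccAACAACAagagcagcctgg

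Levels with DNMT3B-L siRNA went down with the number of copies in the 3′ UTR. The median difference from control was 0.07 in the 9057 genes with 0 copies, -0.07 in the 1075 genes with 1, -0.15 in the 239 genes with 2 and -0.19 in the 128 genes with 3 or more. The share at least 1.5-fold lower was 5.09%, 10.98%, 15.5% and 27.3% in the same order, and the share at least 2-fold lower 1.03%, 1.86%, 2.93% and 8.59%. With PTBP1 siRNA 1 the 4 medians lay between 0.01 and 0.05, and with PTBP1 siRNA 2 between -0.02 and 0.02. Lower medians of genes with a given word were also seen in each PTBP1 siRNA library. The words shown for those libraries had each been paired with 1 of them beforehand, possibly from these same values. Their medians are therefore description only. Genes with CTGCACA in the 3′ UTR had a median of -0.168 with PTBP1 siRNA 1 and 0.01 with DNMT3B-L siRNA. Those with AAGATCA had -0.165 with PTBP1 siRNA 2 and 0.03 with DNMT3B-L siRNA. Genes with AACAACA had -0.077 with DNMT3B-L siRNA. None of these words was tested. Genes with the word in the coding sequence but not in the 3′ UTR had a median of -0.03 (1464 genes), those with it in the 5′ UTR alone 0.16 (55 genes), and those with none 0.08 (7538 genes). Genes whose 3′ UTR held the longer AACAACAA had a median of -0.11 (606 genes), beside -0.07 for those with AACAACA but not the longer word (836 genes). Genes with the shorter ACAACA but not AACAACA stood at 0.02 (1780 genes). Those with the other shorter form, AACAAC, but not AACAACA stood at -0.01 (1473 genes), and those with no ACAACA at 0.08 (7277 genes).

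**Figure D5:**
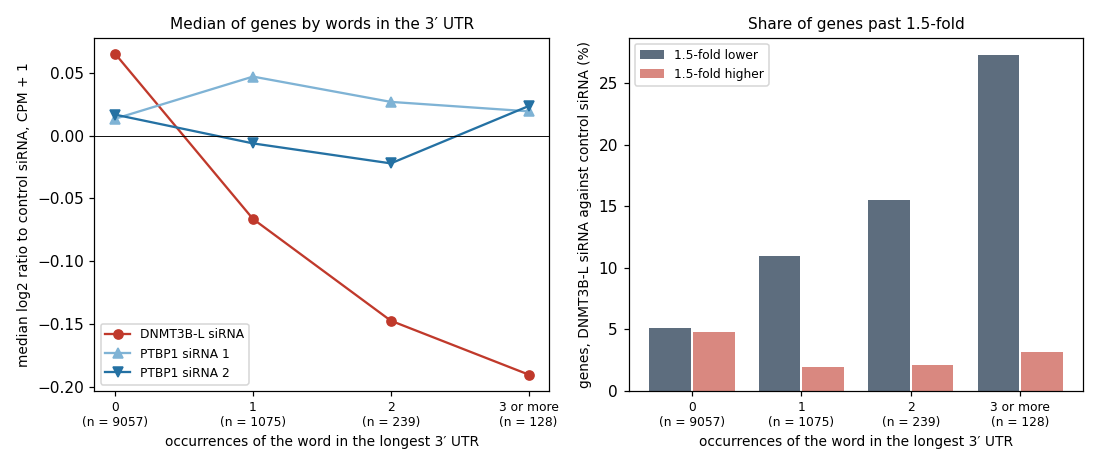
Left, median log2 ratio to control siRNA of CPM + 1 in genes grouped by how many times the word AACAACA occurs in the longest 3′ UTR (x axis, with the number of genes), for the DNMT3B-L siRNA, PTBP1 siRNA 1 and PTBP1 siRNA 2 libraries. Right, share of these genes at least 1.5-fold lower or higher with DNMT3B-L siRNA than with control siRNA: the lower share goes from 5.09% with 0 copies to 27.3% with 3 or more, while the PTBP1 siRNA medians on the left stay within 0.05 of 0.

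The word and the lower genes overlapped only in part. Of the 131 genes with a 3′ UTR that were at least 2-fold lower than control, 38 held the word (29.01%), and of the 33 below all 3 other libraries 15 held it (45.5%), shares that restate in part how the word was chosen. The share was 11.3% of the 168 genes lower with PTBP1 siRNA 1, 15.2% of the 171 lower with PTBP1 siRNA 2, and 1 of the 35 genes higher with DNMT3B-L siRNA. The word is more frequent in long 3′ UTRs: the median length was 1291 bases in genes with 0 copies and 4815 bases in those with 3 or more. Within the shortest, middle and longest UTRs, cut into 3 equal groups, genes with the word had medians of -0.14, -0.13 and -0.07, and genes without it 0.08, 0.06 and 0.05. Of the 14 genes furthest below that are named here, GALNT1, CFL1, NID1 and MYBL2 held the word in the 3′ UTR, while VTN, RAB7B, COL5A1, SUSD2, MB and PLEKHG4 held none in the 3′ UTR or coding sequence. LRRN2, TSPYL2, ABCC3 and SNX18 held it in the coding sequence but not in the 3′ UTR. Over all 10499 genes with a 3′ UTR, 1442 held it in the 3′ UTR and 1464 in the coding sequence but not there. The 93 lower genes without the word had a median 3′ UTR GC content of 52.4%, beside 40.8% for the 38 with it and 43.0% over all genes. Genes 2-fold lower with PTBP1 siRNA 1 and 2 had medians of 48.1% and 43.2%, and the part of base composition in these differences was not tested.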

How the data were processed

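RNA-seq of 4 DU145 libraries was analysed, 1 per siRNA. The authors deposited 1 table of CPM per gene and library. Tools in the submitters' processing notes are HISAT2 2.1.0, HTSeq 0.6.1 and bcl2fastq 2.19.1, and builds hg19 and GRCh37, with strand handling not stated. The paper given with the series describes other cells, so no method was taken from it. Within a tolerance of 0.001, 98.99% to 99.20% of deposited CPM values came out as whole reads, and the others were exactly 0.5 of a read, apparently a count of 0. Depth was 22332245 to 24088975 reads, and exact Poisson and binomial intervals (95%) cover counting error only.

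Differences are log2 ratios of CPM with a pseudocount of 1, over genes in all 4 tables with an average CPM of at least 5. Genes apart differed by 2-fold from each other library in the same direction. limma 3.58.1 with trend on log2(CPM + 1), adjusted by Benjamini-Hochberg, was the test, with edgeR 4.0.16 on recovered reads as an alternative, in R 4.3.3, both tested on simulated data. Named genes were the methylation list, the 14 with the largest gap above and below the other libraries, the 5 largest other differences each way, up to 3 members of each of 18 lists and, for sites, the 6 genes furthest below with the word. A few genes that this rule would name are left out. The comparison, members, lists, markers and word were chosen with earlier results of these data known. Names that a spreadsheet had turned into dates (9) were restored by identifier. Sequences came from GENCODE 29 on GRCh38, another build than the files', so genes were joined by identifier (99.95% matched). A check of promoter CpG content was void, because promoter sequence was at hand for 79.7% of genes and 72.5% of the lower ones. Alternatives were pseudocounts, filters, scaling, baseline, left-out PTBP1 siRNA libraries and genes without the word.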

Additional observations from a re-analysis of the deposited data

Results flagged for a closer look

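A gene outside the 11075 compared stood out among those missing from a table. CH507-513H4.5 had 4.70 CPM with DNMT3B-L siRNA, 0.291 CPM with PTBP1 siRNA 1 and 0.133 CPM with control siRNA, and it was not in the table of PTBP1 siRNA 2. The control value equals the level of 3 reads in that library. Among the 3111 genes missing from at least 1 table this was the highest value. It has no replicate, and what the gene encodes was not examined.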

How the results depend on the processing

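No paired analysis was possible because DNMT3B-L siRNA and control siRNA have 1 library each. The 35 genes 2-fold higher than control became 11 with a pseudocount of 5, 61 with no filter on low values, 61 when any 1 library reached 1 CPM, and 99 against the mean of the PTBP1 siRNA libraries as baseline. The 138 lower genes became 62 with a pseudocount of 5, which shrinks ratios of low values by construction, and 205 with either looser filter. Against the mean of the PTBP1 siRNA libraries as baseline the lower genes were 120. Genes above all other libraries (6) became 2 with a pseudocount of 5 and 13 with either looser filter, and 3 where both DNMT3B-L siRNA and the average of the others had to reach 5 CPM, chosen after seeing the data. Those below (34) became 13 with a pseudocount of 5 and 18 among genes without AACAACA, a smaller set of genes. Leaving out PTBP1 siRNA 1 or 2 gave 10 to 13 above and 51 to 69 below, as fewer libraries have to be passed. The median of the germline list, from 2 genes, was -0.43 and became 0.031 with no filter and 0.085 at 1 CPM, and SLC2A3 was 1.20 and became -0.23 against the PTBP1 siRNA baseline. Signs also turned against that baseline for 6 of 18 list medians, among them the sterol, epithelial, NF-kB and immediate early lists, and for 6 of 102 named genes in all, among them TDG, TET3, CDCA7 and SESN1. Against that baseline 14 of 18 list medians and 70 of 102 named genes moved, lists by over 0.1 and genes by more than their counting interval, and with a pseudocount of 5 the numbers were 1 and 23. A pseudocount of 0.1 and median-of-ratios scaling, with factors of 0.993 to 1.005, moved no list median or named gene past these limits. They moved no count by more than 1.5-fold, the limit used for counts. Counts still changed with a pseudocount of 0.1: the 35 higher genes became 51, the 138 lower genes 179, the 6 genes above all others 8 and the 34 below them 48. Over the 14942 genes that reached 1 CPM, limma and edgeR again called 0 genes (457 and 483 with an unadjusted p under 0.05). The cause of these changes was not tested beyond what is said here. Depth limits genes near 5 CPM most.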
